A study of Homo sapiens with 48 samples.

Results

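The 12 libraries described here are the Kelly libraries of 6 days, chosen by their titles from the 48 libraries of the series. Kelly is a human neuroblastoma cell line with amplified MYCN and is labelled wild type. Cells had received 8 µM STM2457, or DMSO as its solvent, for 6 days, and actinomycin D at 10 µg/ml was then added for 0, 3 or 6 h, which gave 6 groups of 2 libraries. The same design in Kelly at 3 days and in NGP, another MYCN-amplified neuroblastoma line, at 6 days (12 libraries each) served for comparison. All 9 adrenergic neuroblastoma markers (among them HAND2, TH and DBH) were at 5 or more CPM (a gene's count scaled to the size of its library) in all 4 libraries of 0 h, against 0 of 4 immune, 0 of 3 epithelial and 0 of 3 endothelial markers and 1 of 5 fibroblast markers (COL1A1). Of 7 markers of mesenchymal neuroblastoma cells 3 (VIM, FN1 and CD44) were also at that level.

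STM2457 inhibits METTL3, the enzyme that writes N6-methyladenosine (m6A) on mRNA. Reader proteins bind m6A, and one well-known outcome is recruitment of deadenylases that shorten the life of the mRNA. Actinomycin D blocks transcription, so a transcript's level afterwards follows its loss rather than its synthesis. Short-lived transcripts such as those of transcription factors then drop quickly, and long-lived ones such as those of ribosomal proteins take up a growing share of what remains.

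The libraries held 13807701 to 19774227 fragments in genes, 14519 to 16043 detected genes of 19923, 3.91 to 7.38% of fragments on mitochondrial genes and 6.42 to 7.63% on the 10 most counted genes. The quantity compared is the decay difference: the log2 change from 0 to 6 h in STM2457 minus that in DMSO, given ± SE. A positive value is called slower loss and a negative value faster loss, in both cases against the typical gene of the same libraries, because TMM scaling holds that gene at about no change. CPM values are on TMM-scaled library sizes. Tests were made with the quasi-likelihood method of edgeR, the p-values being adjusted over all genes tested by the procedure of Benjamini and Hochberg, with a threshold of 0.05. Nothing in the labels tells whether both replicates came from separate cultures, so p-values measure only the spread between these libraries.

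Poly(A) RNA as a whole, set against the ERCC spike-ins (synthetic RNAs of known amount), went down less over 6 h in STM2457 than in DMSO. The spike-ins took 0.311 ± 0.006% of fragments at 0 h, 0.449 ± 0.003% at 3 h and 0.665 ± 0.015% at 6 h in DMSO (SD, n = 2). In STM2457 the shares were 0.364 ± 0.002%, 0.397 ± 0.0007% and 0.496 ± 0.009%. The share at 6 h was thus 2.14 times that at 0 h in DMSO, with 2.07 to 2.20 over any pair of libraries, and 1.36 times in STM2457, with 1.34 to 1.39, so the ranges did not overlap. Gene fragments per spike-in fragment came to 46.8% of the 0 h value in DMSO and 73.4% in STM2457 at 6 h, and to 69.2 and 91.8% at 3 h. With scaling to the spike-ins the median decay difference of all genes was 0.70 in place of 0.01 with TMM. The same median was -0.37 in Kelly at 3 days and 0.36 in NGP at 6 days. The labels do not say when or how the spike-ins were added, and these counts cannot tell fewer cells from less mRNA per cell. All other values are relative to the typical gene unless the spike-ins are named.

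**Figure D1:**
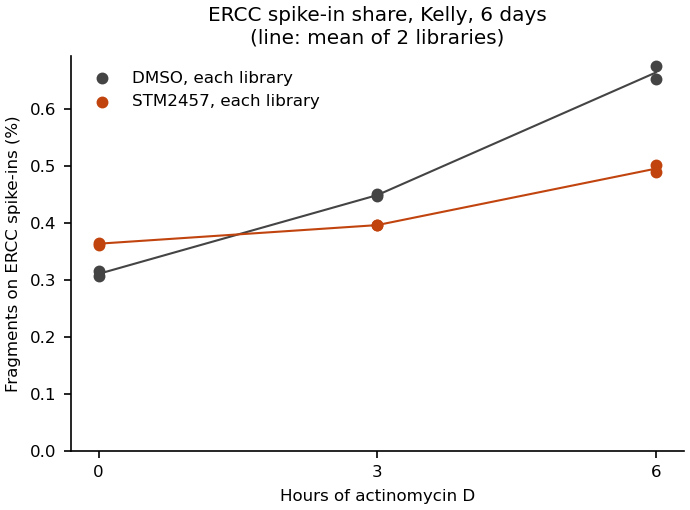
Share of fragments on ERCC spike-ins (%) against hours of actinomycin D in the 12 Kelly libraries of 6 days; points are libraries and lines join the means of 2. At 6 h the DMSO libraries sit near 0.665% and the STM2457 libraries near 0.496%, while at 0 h they sit near 0.311 and 0.364%.

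Beyond this shared shift few single transcripts could be called as lost at a different rate under STM2457. With 2 libraries per group, a gene that was not called may still differ. Of 16759 genes tested, 71 passed the threshold for the decay difference (0.424%): 25 were slower (0.149%) and 46 faster (0.274%). The median size was 0.82 on the log2 scale in each direction, and 10 slower and 15 faster genes differed by more than 2-fold. At an unadjusted p under 0.05 there were 1378 genes (8.22%). Each arm alone had many more calls, with 4448 genes changed over 6 h in DMSO (26.5%) and 4430 in STM2457 (26.4%). Scaling by library size only gave 41 slower and 33 faster genes, and scaling to the spike-ins 5013 slower and 20 faster, of which 10 were among the 46. Leaving out 1 library moved the counts, from 15 slower and 29 faster without STM2457 0 h replicate 1 to 43 slower and 89 faster without STM2457 6 h replicate 2. In all 12 such refits 9 of the 25 slower and 19 of the 46 faster genes were called.

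Histone genes were the kind with the most faster calls. Histone proteins package DNA, and most of these genes are transcribed in S phase, lack introns and end in a conserved stem-loop that takes the place of a poly(A) tail. Of 70 listed genes, 61 passed the filter on low counts. Of these, 14 were faster and 0 slower, or 23% faster against 0.274% of all genes, and their median decay difference was -0.62 against 0.01 for all genes. Among the 47 with a mean of at least 5 CPM, 38 were below 0. The list had been chosen with earlier results of these data known and holds H1-10, which is made outside S phase. Histone copies are nearly identical in sequence, so reads may be split between them, and single members are less certain than the group. The libraries were selected for poly(A), so these counts may not stand for histone mRNA that has no tail.

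The stem-loops are shown for the called members with a match that had the largest decay differences and for a pair of near-identical copies, because the libraries were selected for poly(A) and these ends are known to be used without a tail. Each run was read 5′ to 3′ from the GRCh38 genome on the gene's strand, with the stem-loop in capitals.
H2AC20, chr1:149887386-149887411, plus strand: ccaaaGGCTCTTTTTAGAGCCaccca
H1-3, chr6:26234212-26234237, minus strand: taaacGGCTCTTTTCAGAGCCaccca
H2AC4, chr6:26033093-26033118, minus strand: gcaaaGGCTCTTTTCAGAGCCaccta
H4C4, chr6:26188710-26188735, minus strand: ccaacGGCCCTTTTCAGGGCCaccta
H1-4, chr6:26157090-26157115, plus strand: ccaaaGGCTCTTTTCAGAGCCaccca
H2BC17, chr6:27893865-27893890, plus strand: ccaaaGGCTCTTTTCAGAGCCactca
H2AC18, chr1:149842218-149842243, minus strand: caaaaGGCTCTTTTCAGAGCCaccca
H2AC19, chr1:149851569-149851594, plus strand: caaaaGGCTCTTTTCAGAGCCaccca
The histone stem-loop motif was sought on the gene's strand from 200 bases before to 100 bases after the annotated end. It was found for 36 of the 61 histone genes tested (59.0%) and for 0 of 16675 other genes. Of the 36 with a match 12 were faster, with a median decay difference of -0.81, and of the 25 without one 2 were faster (H2AC11 and H4C5), with a median of -0.22. H2AC18 and H2AC19 have the same printed run and read -4.18 and 4.53, neither called.

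H2AC20, a gene for core histone H2A, had the smallest adjusted p of the list. It read 213 and 176 CPM at 0 h, 55.4 and 62.6 at 3 h and 35.3 and 40.6 at 6 h in DMSO. In STM2457 it read 328 and 307, then 44.7 and 48, then 17.8 and 15.7 CPM. The STM2457 libraries were above both DMSO libraries at 0 h and below both at 3 and 6 h. The decay difference was -1.89 ± 0.19 (edgeR adjusted p = 1.76e-15), and 5.26% of the 0 h level was left at 6 h in STM2457 against 19.5% in DMSO. It had already passed the threshold over 0 to 3 h, at -1.05 (edgeR adjusted p = 8.82e-05).

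The linker histones, which bind DNA between nucleosomes, moved alike. H1-4 read 481 and 448 CPM at 0 h, 39.6 and 36.5 at 3 h and 17.6 and 21.9 at 6 h in DMSO, and 694 and 651, then 32.1 and 24.5, then 9.60 and 12.7 in STM2457. The groups did not overlap at any time, and the order turned between 0 and 3 h. Its decay difference was -1.36 ± 0.17 over 6 h and -0.96 over 3 h (edgeR adjusted p = 1.25e-09 and 8.11e-05). H1-5 went from 671 and 646 to 20.9 and 17.4 CPM in DMSO and from 1224 and 1133 to 14.3 and 17.4 in STM2457, a decay difference of -1.11 ± 0.16 (edgeR adjusted p = 7.50e-08). At 6 h a library of each arm read 17.4 CPM, while both STM2457 libraries had started higher. H1-3 fell to 2.42 and 2.43 CPM in DMSO and to 0.873 and 0.400 in STM2457, with a decay difference of -2.33 ± 0.47 (edgeR adjusted p = 0.00110). Its value thus rests on low levels at 6 h. The call of H1-3 was lost in 3 of 11 alternative fits, that of H1-5 in 4 of 12 and that of H1-4 in 2 of 12. Values in those fits ran from -2.65 to -1.64, from -1.22 to -0.41 and from -1.48 to -0.66.

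The core histone genes H2AC4 (-1.99 ± 0.37), H4C4 (-1.55 ± 0.38), H2AC11 (-1.47 ± 0.21) and H2BC17 (-1.38 ± 0.34) were also faster, with edgeR adjusted p of 0.000213, 0.0197, 8.35e-08 and 0.0197. The call of H2AC4 was lost without DMSO 6 h replicate 1 (-1.02). The call of H4C4 was lost without STM2457 0 h replicate 1 (-1.42), DMSO 6 h replicate 2 (-0.59) or STM2457 6 h replicate 1 (-0.95), and that of H2BC17 without any of 4 libraries (-1.06 to -1.42). H2AW, an intronless H2A gene that was not in the list, read 105 and 93.1 CPM at 0 h and 39.1 and 36.1 at 6 h in DMSO, against 141 and 137 and then 13.5 and 21.5 in STM2457. Its decay difference was -1.59 ± 0.26 (edgeR adjusted p = 4.47e-06).

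Histone genes also differed before actinomycin D. At 0 h, 20 of the 47 with at least 5 CPM were higher in STM2457 and 0 lower, against 2.7% higher and 1.26% lower of all genes tested, with a median of 0.58. DNA replication genes were higher too, with a 0 h median of 0.50 over 40 genes, and G2 and mitosis genes likewise, with 0.32 over 40, beside a 0 h median of 0 for all genes; the part of these levels in the decay difference was not tested. The per-library median of the list, as log2 of CPM + 0.5 relative to each gene's 12-library mean, was 1.74 and 1.63 in DMSO and 2.26 and 2.22 in STM2457 at 0 h. At 6 h it was -1.07 and -1.09 against -0.91 and -1.25, where the arms overlapped. With spike-in scaling the list's median decay difference was 0.06 beside 0.70 for all genes, so the list stayed below the other genes while its median came to about no difference in loss.

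**Figure D2:**
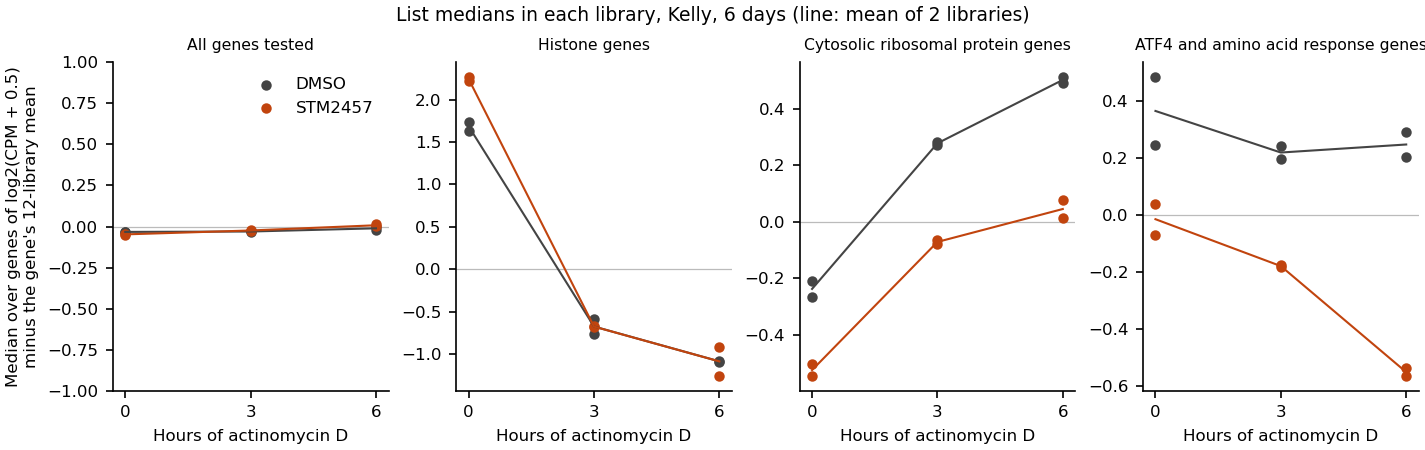
Median over the genes of a list of log2(CPM + 0.5) minus each gene's mean over the 12 libraries, against hours of actinomycin D; points are libraries, lines join means of 2, and each panel has its own vertical scale. Histone genes start at 2.26 and 2.22 in STM2457 against 1.74 and 1.63 in DMSO and meet by 3 h, while ribosomal protein genes climb in both arms and stay lower in STM2457.

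Cytosolic ribosomal protein genes, whose mRNAs are among the most abundant and longest-lived of a cell, gained less share over 6 h in STM2457. Of 81 listed genes 79 were tested, of which 8 were faster and 0 slower, and 71 lay below 0. The faster share was 10.1%, against 0.274% of all genes and 1.04% of the top quintile by mean level. The list's median decay difference was -0.20, the SD between replicates of the library medians being 0.03. The median change over 6 h was 0.78 in DMSO and 0.59 in STM2457, so these transcripts outlasted the typical gene in both arms. The faster members were RPS2, RPS27A, RPLP1, RPL5, RPL15, RPSA, RPL8 and RPL34. In STM2457, 48 of the 79 were lower and 0 higher at 0 h, against 1.26% lower and 2.7% higher of all genes. With spike-in scaling the 0 h difference of all genes had a median of -0.21 in place of 0.

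RPS2, a protein of the small subunit, read 1912 and 1854 CPM at 0 h, 2999 and 2995 at 3 h and 3821 and 3842 at 6 h in DMSO. In STM2457 it read 1947 and 1764, then 2907 and 2795, then 2774 and 2838. The arms overlapped at 0 h and parted at 6 h, and the decay difference was -0.43 ± 0.065 (edgeR adjusted p = 6.68e-07). RPS27A, which is made as a fusion with ubiquitin, had -0.50 ± 0.092 and RPLP1, a protein of the ribosomal stalk, -0.37 ± 0.072 (edgeR adjusted p = 0.000158 and 0.000472). The RPLP1 call was lost without STM2457 0 h replicate 1 (-0.30). Scaled to the spike-ins these 3 genes read 0.27, 0.20 and 0.33, and the list 0.50 beside 0.70 for all genes. Ribosomal protein genes have many processed copies in the genome, so their counts may have lost or gained reads.

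RPL36AL, a retained copy of a large-subunit protein gene that was not in the list, went the other way. It read 109.7 and 96.9 CPM at 0 h and 56.1 and 65.7 at 6 h in DMSO, against 118 and 121 and then 159.9 and 126 in STM2457. Its decay difference was 1.02 ± 0.17 (edgeR adjusted p = 1.16e-05).

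Other transcripts of protein synthesis were faster singly. EIF4A2, an RNA helicase of translation initiation, read 654 and 647 CPM at 0 h and 804 and 784 at 6 h in DMSO, and 590.3 and 610.0 and then 497 and 507 in STM2457. Its decay difference was -0.55 ± 0.10 (edgeR adjusted p = 0.000300), and that of its relative EIF4A1 was -0.54 ± 0.13 (edgeR adjusted p = 0.0216), although 29.8% of EIF4A1 exon bases are shared with SENP3-EIF4A1, and 3 of the 12 refits without 1 library no longer called it. Scaled to the spike-ins both were above 0 (0.16 each). The 67 translation factor genes had a median of -0.02 with 2 faster (2.99%) and 0 slower. The faster share was 0.274% of all genes and 1.04% of the top quintile by mean level. The 20 aminoacyl-tRNA synthetase genes had a median of -0.11 and the 77 mitochondrial ribosomal protein genes 0.07, both with none called.

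ATF4, the transcription factor of the amino acid and integrated stress response, was lost in STM2457 and held its share in DMSO. It read 397 and 357 CPM at 0 h, 357 and 337 at 3 h and 369 and 355 at 6 h in DMSO. In STM2457 it read 314 and 309.9, then 218 and 238, then 194 and 159.9. All STM2457 libraries were below all DMSO libraries. The decay difference was -0.76 ± 0.13 (edgeR adjusted p = 7.82e-06), and 56.7% of the 0 h level was left against 96.1%. Spike-in scaling gave -0.06, which was not called. Of 24 tested ATF4 and amino acid response genes, of 25 listed, ATF4 alone was called, or 4.17% faster against 0.274% of all genes. Below 0 were 20 of the 24, with a list median of -0.31. The amino acid transporter SLC7A5 read -0.21 ± 0.14 and the serine synthesis enzyme PHGDH -0.21 ± 0.12, neither called.

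SLC2A1, the GLUT1 glucose transporter, was the called member of the glycolysis list, or 5.56% faster of 18 against 0.274% of all genes. It read 110.1 and 112 CPM at 0 h and 99.4 and 79.3 at 6 h in DMSO, against 62.8 and 58.3 and then 28.6 and 20.8 in STM2457. The decay difference was -0.98 ± 0.20 (edgeR adjusted p = 0.00119). The call was lost in 3 of 12 alternative fits, with values from -1.12 to -0.28. Of the 18 glycolysis genes 16 were below 0, with a median of -0.16, and GAPDH read -0.18 ± 0.055 (edgeR adjusted p = 0.140). INSIG1, which restrains cholesterol synthesis, was faster at -1.20 ± 0.31 (edgeR adjusted p = 0.0395), a call lost without any of 5 libraries (-1.01 to -1.25). The 28 genes of cholesterol and fatty acid synthesis had a median of -0.01, with 1 faster (3.57%) and 0 slower.

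MYCN, the amplified oncogene of these cells, fell steeply in both arms and slightly further in STM2457. It read 4593 and 4370.2 CPM at 0 h, 733 and 749 at 3 h and 625 and 669.8 at 6 h in DMSO, and 5054 and 4834, then 678 and 762, then 554 and 504 in STM2457. At 6 h 10.7% was left in STM2457 and 14.4% in DMSO, with a decay difference of -0.43 ± 0.067 (edgeR adjusted p = 1.50e-06). Scaled to the spike-ins it was 0.27. The 12 adrenergic transcription factors had a median of -0.03, MYCN being the called member (8.33% faster, against 0.274% of all genes). The 37 tested immediate early and AU-rich short-lived genes changed by a median of -1.72 in DMSO and -1.96 in STM2457, and none was called for the decay difference, whose median was -0.11. The zinc finger genes of chromosome 19 (243 tested) had a median of 0.00 with none called. MT-ND1, a complex I subunit encoded in mitochondria, was faster at -0.37 ± 0.076 (edgeR adjusted p = 0.00123) and read 0.33 when scaled to the spike-ins. The mitochondrial fragment share itself moved from 7.04 ± 0.483 to 4.85 ± 0.122% in DMSO and from 6.01 ± 0.0443 to 4.34 ± 0.608% in STM2457 (SD, n = 2).

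Among slower transcripts FEN1, the flap endonuclease that trims Okazaki fragments in DNA replication, had the smallest adjusted p. It read 77.8 and 72.9 CPM at 0 h, 58.1 and 55.4 at 3 h and 25.1 and 25.8 at 6 h in DMSO. In STM2457 it read 143 and 139.5, then 125 and 142, then 147 and 137. It thus fell to 33.8% in DMSO while STM2457 libraries stayed at about their 0 h level, and the decay difference was 1.57 ± 0.17 (edgeR adjusted p = 1.01e-12). Most of it lay between 3 and 6 h, at 1.25 (edgeR adjusted p = 1.10e-07). The other 39 DNA replication genes were not called, so 2.5% of the list was slower against 0.149% of all genes. The list's median was -0.03.

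MAGEF1, an intronless gene of the MAGE family that acts on ubiquitin ligases, read 139 and 151 CPM at 0 h, 67.4 and 78.7 at 3 h and 32.2 and 28.5 at 6 h in DMSO. In STM2457 it read 178 and 196, then 139.6 and 131, then 98.4 and 91.8. STM2457 libraries were higher at every time, and 50.8% was left at 6 h against 20.9%. The decay difference was 1.28 ± 0.17 (edgeR adjusted p = 1.85e-08). GEMIN6, a part of the SMN complex that assembles spliceosomal particles, started alike in both arms, at 33.3 and 41.0 CPM in DMSO and 37.4 and 41.2 in STM2457. It then went to 12.5 and 13.9 against 23.5 and 23.4 CPM at 3 h and to 3.83 and 5.66 against 18.7 and 18.3 at 6 h. Its decay difference was 1.88 ± 0.39 (edgeR adjusted p = 0.00123), and the call was lost without DMSO 6 h replicate 1 (1.62).

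FAM49A, an actin regulator also known as CYRIA, was at 78.6 and 72.9 CPM at 0 h and 121 and 147 at 6 h in DMSO, against 43.1 and 58.6 and then 177 and 184 in STM2457. Its share rose in both arms, and more in STM2457, which started lower, with a decay difference of 1.01 ± 0.19 (edgeR adjusted p = 0.000421). The call was lost without STM2457 0 h replicate 1 (0.80). SYNM, an intermediate filament protein, read 1.06 ± 0.24 (edgeR adjusted p = 0.00666), with the call lost without STM2457 0 h replicate 2 (0.94) or STM2457 6 h replicate 2 (0.89). SRP19 (1.51 ± 0.38), a protein of the signal recognition particle, POLR3B (1.39 ± 0.36), a subunit of RNA polymerase III, SLC35A4 (1.12 ± 0.29), of the nucleotide sugar transporter family, and NRIP1 (0.94 ± 0.24), a nuclear receptor corepressor, had edgeR adjusted p of 0.0338, 0.0443, 0.0419 and 0.0419. Leaving out 1 library ended the call of SRP19 in 5 of 12 refits, of POLR3B in 6, of SLC35A4 in 4 and of NRIP1 in 6, and the lowest value was 0.67, for SLC35A4 without STM2457 6 h replicate 2.

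**Figure D3:**
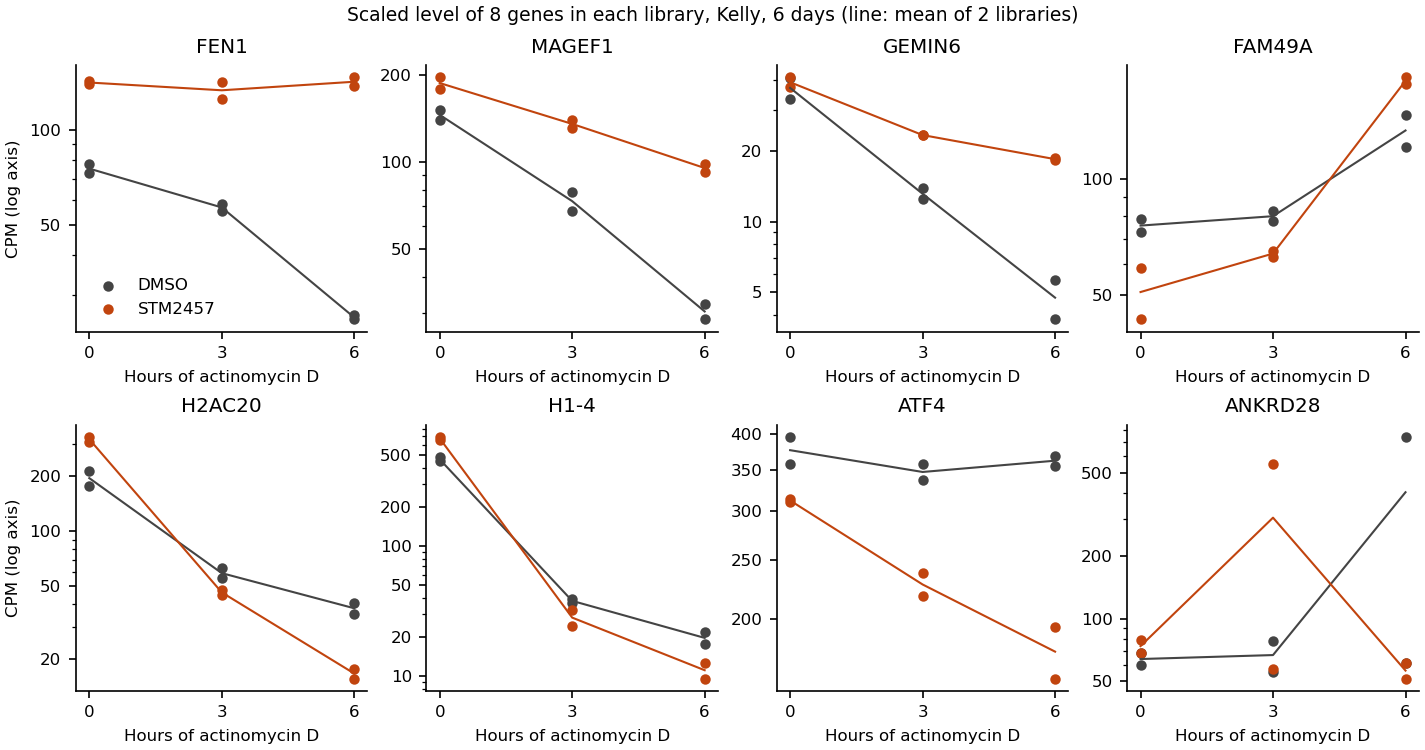
CPM (log axis) of 8 genes against hours of actinomycin D in the 12 Kelly libraries of 6 days; points are libraries and lines join the means of 2. FEN1, MAGEF1 and GEMIN6 part upwards in STM2457 at 6 h, H2AC20, H1-4 and ATF4 part downwards, and ANKRD28 is near 746 CPM in 1 DMSO library and 552 CPM in 1 STM2457 library.

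Neuronal structure genes had slower members without a shift of the list. Of 34 genes of neurofilaments, microtubules and synapses 3 were slower and 0 faster, with a median of 0.00. The slower share was 8.82%, against 0.149% of all genes and 0.537% of the top quintile by mean level. CHGA, the granule protein chromogranin A, went from 4942 and 4732 to 5796 and 5958 CPM in DMSO and from 5508 and 5495 to 8806 and 7509.7 in STM2457, a decay difference of 0.29 ± 0.048 (edgeR adjusted p = 8.30e-06). Its value was 0.17 without STM2457 6 h replicate 1 and 0.40 without replicate 2 of that group, still called. NEFH, the heavy neurofilament chain, went from 493 and 471 to 580.2 and 606 CPM and from 549 and 578 to 1064 and 872 CPM, a decay difference of 0.48 ± 0.087 (edgeR adjusted p = 0.000107). MAP1A, a microtubule-associated protein, fell to 56.9% in DMSO and kept 88.6% in STM2457, with 0.64 ± 0.14 (edgeR adjusted p = 0.00695), a call lost without DMSO 0 h replicate 2 (0.58), STM2457 0 h replicate 1 (0.54) or DMSO 6 h replicate 1 (0.60).

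Splicing and folding factors had 2 slower members each, or 5.13% of 39 SR protein and hnRNP genes and 6.25% of 32 heat shock and folding genes. The slower share was 0.149% of all genes and 0.537% of the top quintile by mean level. HNRNPM went from 425 and 411 to 480.3 and 518 CPM in DMSO and from 439 and 443 to 787 and 691 in STM2457. Its decay difference was 0.49 ± 0.094 (edgeR adjusted p = 0.000325) and that of HNRNPF 0.50 ± 0.13 (edgeR adjusted p = 0.0367), a call lost in 7 of 12 refits without 1 library. Both bind pre-mRNA, and the 39 SR protein and hnRNP genes had a median of 0.07. HSPA5, the chaperone BiP of the endoplasmic reticulum, read 0.46 ± 0.11 and PDIA4, a disulfide isomerase there, 0.43 ± 0.11 (edgeR adjusted p = 0.00861 and 0.0226), each lost in 4 of 12 such refits. The 32 heat shock and folding genes had a median of 0.02. MKI67, the proliferation antigen, was the called member of the 40 G2 and mitosis genes (2.5%) at 0.30 ± 0.080 (edgeR adjusted p = 0.0483). The list had a median of -0.10, and the MKI67 call was lost in 11 of 12 refits.

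Lists tied to m6A and to mRNA decay itself had no calls. METTL3 read 48.3 and 54.5 CPM at 0 h and 45.9 and 62.2 at 6 h in DMSO and 53 and 66.2 and then 62.3 and 56.4 in STM2457, a decay difference of -0.08 ± 0.24 over overlapping groups. STM2457 acts on the METTL3 protein, so this does not check the treatment. The 20 m6A writer, reader and eraser genes had a median of 0.03, the 47 deadenylation, decapping and exosome genes -0.04, and the 36 long chromatin regulator genes 0.03. The homologous recombination and Fanconi repair genes (30) had a median of -0.19 and the voltage-gated ion channel genes (61 of 66 tested) 0.20, both with none called. None was called either among HOX cluster genes (25 of 39 tested, median 0.10), p53 target genes (22, -0.07), nuclear oxidative phosphorylation genes (83 of 89, -0.11), nucleolar ribosome assembly genes (38, -0.03), catecholamine and neurotrophic receptor genes (18, -0.09), axon guidance genes (48, -0.09) and genes of collagens, laminins and integrins (79 of 81, -0.02). ACTB read 0.09 ± 0.052 and was not called.

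**Figure D4:**
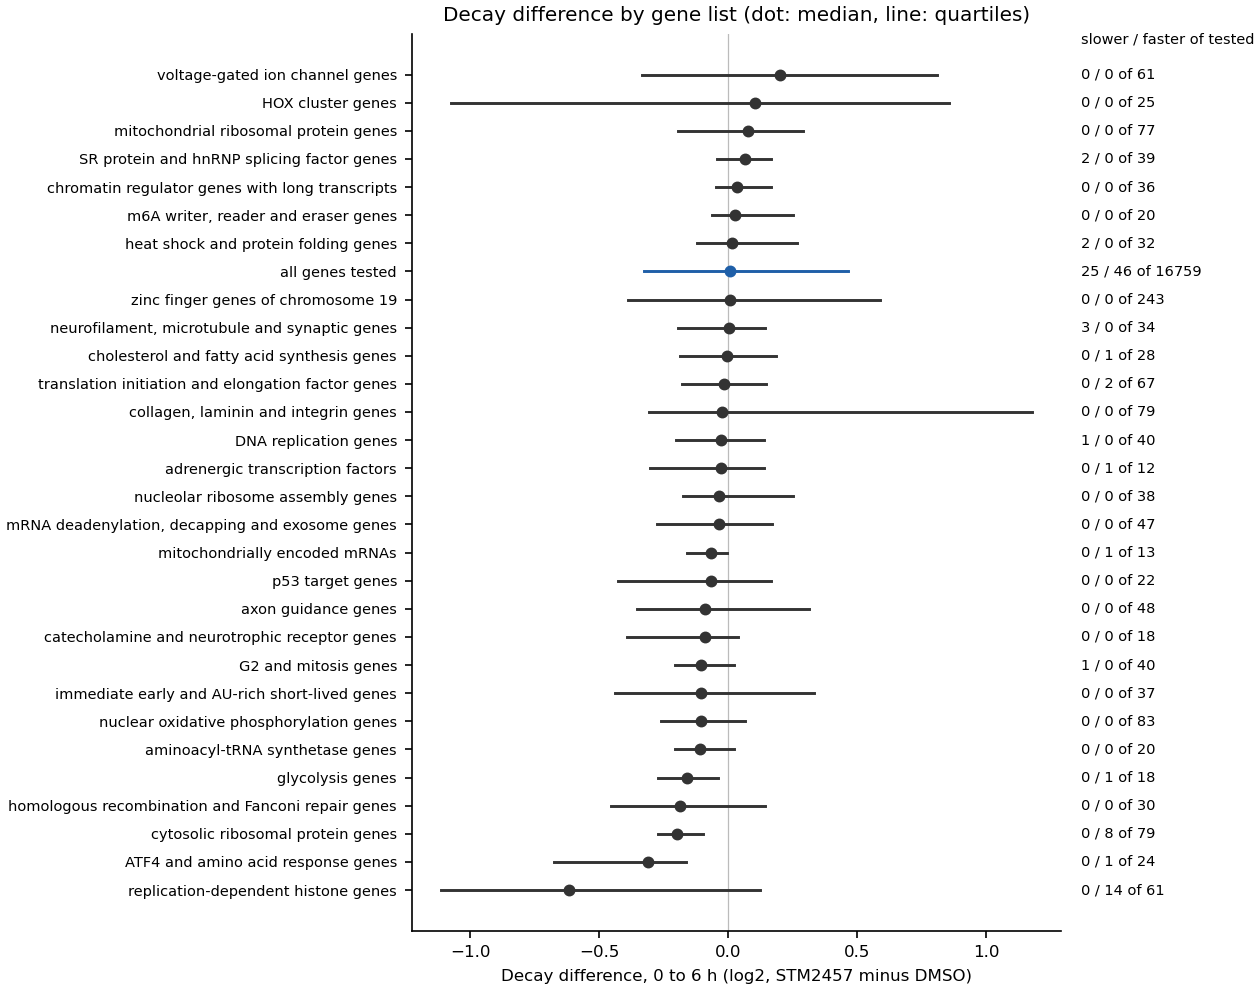
Decay difference over 0 to 6 h (log2) for 29 gene lists and all genes tested; dots are medians, lines run from the lower to the upper quartile, and the figures on the right count slower and faster genes of those tested. The histone list lies lowest at -0.62 with 14 of 61 faster, and the voltage-gated ion channel list highest at 0.20 with none called.

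Transcripts were also described by their structure. Of 515 genes with a single merged exon, 17 were faster (3.30%) and 1, MAGEF1, was slower (0.194%), against 0.274 and 0.149% of all genes. Of those 17, 14 were in the histone list, and H2AW, MAB21L1 and MT-ND1 made up the rest. The 184 single-exon genes outside the histone list with at least 5 CPM had a median of -0.01, beside -0.04 for all 10727 genes at that level. In the shortest quintile of exon length 23 of 3353 genes were faster (0.686%), of which 14 were histone genes, and 4 were slower (0.119%). In the longest quintile 6 were faster and 6 slower (0.179% each). At 5 CPM or more the medians of the 5 quintiles of exon length ran from -0.07 (shortest) to -0.02 (longest), and those of the longest exon from -0.07 to -0.02, again from shortest to longest. For exon GC content the lowest quintile had -0.04, the middle one -0.02 and the highest -0.08.

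GGACT, a common m6A sequence context, was counted per kb of a gene's exons on its own strand. The quintile with the most (over 1.42 per kb) had 7 slower (0.209%) and 5 faster (0.149%) of 3352 genes, near the 0.149 and 0.274% of all genes, and its genes at 5 CPM or more had a median of -0.02. The quintile with the least (up to 0.544 per kb) had 5 slower (0.149%) and 25 faster (0.746%), with a median of -0.06 at 5 CPM or more. The genes lost fastest in the Kelly DMSO libraries of 3 days, which the comparison does not use, had 5 slower (0.149%) and 22 faster (0.656%) members in their quintile, and the longest-lived quintile had 2 slower (0.0597%) and 12 faster (0.358%). The medians of these quintiles were 0.06 and 0.09 over all their genes, and -0.03 and -0.06 over the 1605 and 1275 genes at 5 CPM or more. Faster histone genes were not set apart in these quintiles or in those of GGACT. The histone list itself had 14 faster genes and a median change of -3.22 over 6 h in DMSO at 6 days. More calls were made among highly expressed genes: the top quintile of mean level held 18 of the 25 slower and 35 of the 46 faster genes, while its median was -0.03.

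At 3 h, the middle point, 6 genes passed the threshold (0.0358%), 4 above 0 (0.0239%) and 2 below (0.0119%). The 2 below were H2AC20 and H1-4. The 4 above were BTD, RPS29, ANKRD28 and MUC16, and the calls of RPS29 and ANKRD28 followed 1 library. BTD, the enzyme biotinidase, read 3.44, with 380.2 and 107 CPM at 3 h in STM2457 against 34.1 and 37.8 at 0 h, and 2.25 without STM2457 3 h replicate 1, still called. RPS29 read 2.24, with 1099 and 116 CPM at 3 h in STM2457, and -0.15 without that library. ANKRD28, a regulatory subunit of a protein phosphatase, read 1.99, with 552 and 57.3 CPM, and -0.43 without it. From 3 to 6 h 15 genes passed (0.0895%), 5 above 0 (0.0298%) and 10 below (0.0597%). Those above were FEN1, MAGEF1, SYNM, ZNF140 and MT-CO1, and those below included H2AC20, H2AC11, RPS2 and IGF2. ZNF140, MT-CO1, MUC16, MAB21L1, IGF2, PHGDH, H4C5, H2AC18, H2AC19 and the ribosomal protein genes given without values were named after their values were seen.

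ANKRD28 also gave the lowest decay difference over 6 h of the called genes, -3.05 ± 0.43 (edgeR adjusted p = 7.50e-08), and 1 library carried it. It read 59.9 and 68.1 CPM at 0 h and 61.1 and 746 at 6 h in DMSO, against 68.6 and 79.0 and then 51.5 and 61.2 in STM2457. Without DMSO 6 h replicate 2 the value was -0.33 and the call was lost. BTD lies beside it on chromosome 3 (positions 15601341 to 15722311, ANKRD28 at 15667236 to 15859771), shares 7.02% of its exon bases with it, and read 52.7 and 522 CPM in the same DMSO libraries of 6 h. CYGB, the oxygen-binding protein cytoglobin, went from 65.9 and 59.6 to 80.1 and 102 CPM in DMSO and from 42.7 and 48.5 to 26.9 and 24.8 in STM2457, a decay difference of -1.36 ± 0.26 (edgeR adjusted p = 0.000282).

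IGF2, a fetal growth factor, was named after its values were seen, since 86.6% of its exon bases are shared with AC132217.2. It read 817 and 809 CPM at 0 h and 2132 and 2183 at 6 h in DMSO, against 588 and 605 and then 938 and 844 in STM2457, a decay difference of -0.83 ± 0.083 (edgeR adjusted p = 1.76e-15). MUC16, likewise, had 0 fragments in both STM2457 libraries of 0 h (3 fragments over the group would be 0.0865 CPM) and 11.7 and 11.0 CPM at 6 h, against 2.32 and 1.45 and then 10.9 and 8.83 in DMSO.

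The slower genes kept their sign in Kelly at 3 days. There 37 genes were called (0.221%), 33 above 0 (0.197%) and 4 below (0.0239%). Of the 25, 23 were above 0, 6 of them called and 0 called below, with a median of 0.43 beside 0.02 for all genes, of which 51.7% were above 0. FEN1 read 0.89 and MAGEF1 0.94 there, both called. In NGP at 6 days, with 277 genes called (1.6%), 143 above 0 (0.825%) and 134 below (0.773%), 12 of the 25 were above 0, 5 called above and 2 called below. The 14 faster histone genes went the other way elsewhere: 3 of 14 were below 0 in Kelly at 3 days, with a median of 0.59, and 3 of 14 in NGP at 6 days, with a median of 0.57. Of the 32 other faster genes 26 were below 0 in Kelly at 3 days and 20 in NGP, beside 47.3 and 50.1% of all genes. Of these 32, 2 were called below and 1 above in Kelly at 3 days, and 2 below and 2 above in NGP. Across the 10727 genes with at least 5 CPM, which are not independent replicates, the decay differences in Kelly at 6 and 3 days had a Pearson r of 0.078 and a Spearman rho of 0.087, and those in Kelly and NGP at 6 days -0.004 and 0.041.

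**Figure D5:**
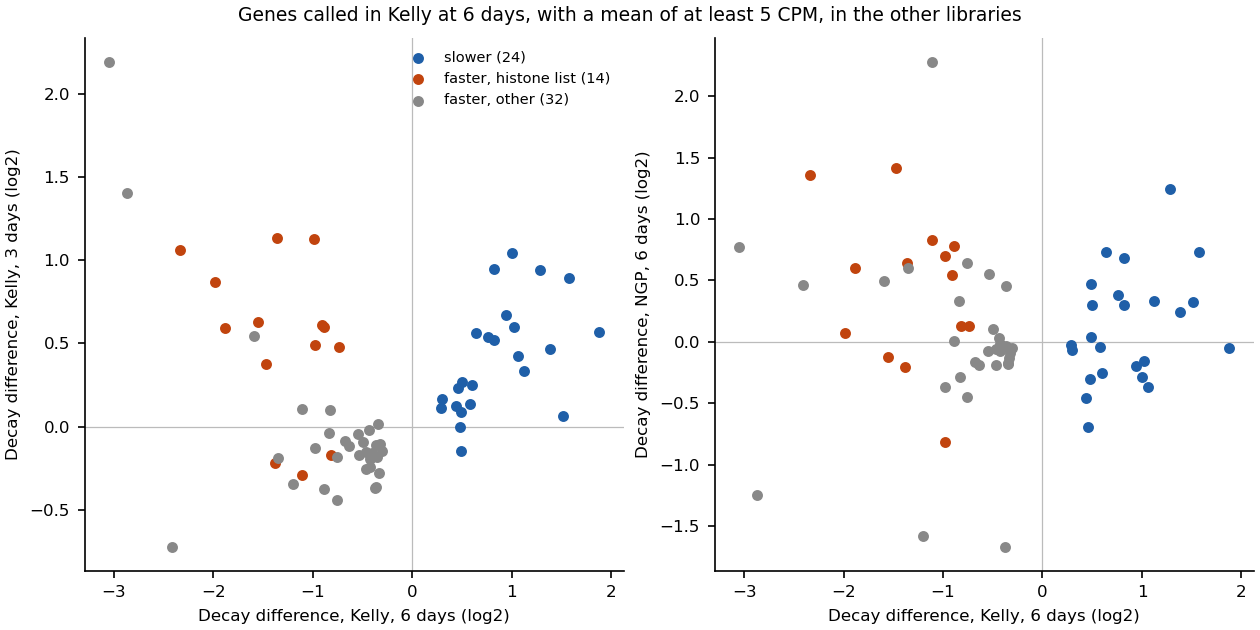
Decay difference (log2) of genes called in Kelly at 6 days with a mean of at least 5 CPM (horizontal axes) against the same genes' decay difference in Kelly at 3 days (left) and NGP at 6 days (right). Of the 24 slower genes 22 lie above 0 on the left and 12 on the right, and most of the 14 faster histone genes lie above 0 in both.

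The differences themselves were tested. Between Kelly at 6 and 3 days 33 genes differed (0.197%), 28 of them more negative at 6 days (0.167%) and 5 more positive (0.0298%), and 14 of the 28 were histone genes with at least 5 CPM. H2AC20 differed by -2.48 ± 0.27 and H1-4 by -2.50 ± 0.26 (edgeR adjusted p = 2.02e-13 and 1.91e-13), and the median of the 47 histone genes was -0.72 at 6 days and 0.41 at 3 days. Between Kelly and NGP at 6 days 174 of 17343 genes differed (1%), 76 more positive (0.438%) and 98 more negative (0.565%) in Kelly. Among them were 12 histone genes with at least 5 CPM. ATF4 differed by -1.40 ± 0.17 (edgeR adjusted p = 5.07e-08), being slower in NGP at 0.64, and the median of the ATF4 list at 5 CPM or more was -0.24 in Kelly and 1.30 in NGP. The ribosomal protein list had medians of -0.20 in Kelly at 6 days, -0.11 at 3 days and -0.02 in NGP, and 0 and 1 of its members differed between the durations and the lines. No library stood on both sides of these tests.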

How the data were processed

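Poly(A) RNA-seq was available for 48 libraries, of which the 12 Kelly libraries of 6 days are reported. They were made from TRIzol RNA by poly(A) selection with beads and a SMART kit, per the labels' protocols. What the authors deposited is a raw count of fragments for each gene, from featureCounts 1.5.3 over exons by gene name, per the file headers, on protein-coding genes of GENCODE release 33 and 92 ERCC sequences. No setting for strand, overlap or multi-mapping appears in the headers, so a gene and an antisense neighbour cannot be told apart. HISAT2 2.1.0, FastQC 0.11.5, Trimmomatic 0.36 and Subread 1.5.3 are named as tools and GRCh38 as build, per the submitters' processing notes, with no settings. ERCC counts were kept out of library sizes.

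The test was that of edgeR 4.0.16 under R 4.3.3 (quasi-likelihood, TMM, filterByExpr with minimum count 10 and total 15) on all 24 Kelly libraries, one mean per group, so 12 groups shared 1 estimate of spread, which left 16759 genes. The line difference used all 48 libraries and 17343 genes. SEs are the absolute log2 value divided by the square root of F. Replicates of a group differed by more than counting noise (chi-square per degree of freedom 10.5 to 20.5), so none was a copy. The depth of 13807701 to 19774227 fragments sets the counting precision. Exon structure and shared exon bases were computed from the exon positions given in the count files. GC content and GGACT were read at these positions from the reference genome of the same build, in which stem-loops were also sought. The fit was tested on simulated counts.

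The members and the 29 gene lists were chosen with earlier results of these data known. Named genes were the 10 largest called values in each direction (mean of at least 5 CPM, at most 10% shared exon bases), up to 3 called members of each list, METTL3, MYCN, GAPDH and ACTB, the 3 of smallest adjusted p in each direction for the differences between durations and between lines, and likewise for 0 to 3 h; the results of some genes under this rule are left out of the text. Alternatives were scaling by RLE, by library size only or by ERCC, no filter, minimum count 50, DESeq2 1.42.0, limma-voom (limma 3.58.1), a replicate block, removal of an exon length trend, the 12 libraries alone, a linear slope over the hours, and leaving out each library. The edgeR fit without a separate dispersion trend, and medians over genes of at least 5 CPM, were chosen after seeing the data.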

Additional observations from a re-analysis of the deposited data

Results flagged for a closer look

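Some genes named in the report had a decay difference that differed by test between the Kelly libraries of 6 and 3 days or between Kelly and NGP at 6 days (quasi-likelihood method of edgeR, adjusted p under 0.05).

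Between the durations, as 6 days minus 3 days, ANKRD28 differed by -5.24, with -2.52 without DMSO 6 h replicate 2. The histone genes H2AC20 and H1-4 differed by -2.48 and -2.50, H1-4 having been slower at 3 days (1.13) and faster at 6 days (-1.36). IGF2 differed by -0.93 and MYCN by -0.41. In the other direction ERCC8, a DNA repair factor, differed by 1.94 and HNRNPM by 0.64. ERCC8 was not called at 6 days alone (0.91). Its call between the durations was lost without STM2457 0 h replicate 2 (1.84), DMSO 6 h replicate 2 (1.77) or STM2457 6 h replicate 1 (1.61).

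Between the lines, as Kelly minus NGP, genes of the amino acid response were more negative in Kelly: ATF4 by -1.40, SLC7A5 by -1.84 and the glycyl-tRNA synthetase GARS1 by -1.32. SLC7A5 and GARS1 read -0.21 and -0.14 in Kelly, not called, and 1.63 and 1.18 in NGP, both called. Chaperone genes were more positive in Kelly: HSPA5 by 1.16, HSPA8 by 1.12 and HSP90AA1 by 0.81. HSPA8 and HSP90AA1 were not called in Kelly (0.23 and 0.13) and read -0.88 and -0.69 in NGP. The glycolytic enzyme ENO1 differed by 0.64, NEFH by 0.78, RPL36AL by 1.18 and FAM49A by 1.29.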

How the results depend on the processing

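Counts of called genes depended on the fit, and directions also depended on whether the spike-ins set the scale. Slower genes, 25 in the reported fit, were 41 by library size only, 5013 with ERCC scaling, 69 with DESeq2, 13 with limma-voom, 15 with the exon length trend removed, 15 in the 12 libraries alone and 3 as a linear slope. Faster genes, 46, were 20 with ERCC scaling, 110 with DESeq2, 21 with limma-voom, 173 with the length trend removed and 4 as a slope. Over 0 to 3 h the reported fit had 6 calls, and 680 genes (4.06%) had an unadjusted p under 0.05. These 6 calls became 1789 with ERCC scaling, 12 with no filter, 0 at minimum count 50, 11 with DESeq2 and 3 with limma-voom. They became 12 with the replicate block, 10 with the length trend removed, 3 without a dispersion trend and 3 in the 12 libraries. The 15 over 3 to 6 h became 443 with ERCC scaling, 8 at minimum count 50, 62 with DESeq2, 9 with limma-voom, 27 with the length trend removed and 6 in the 12 libraries. The 33 between durations became 5918 with ERCC scaling, 8 at minimum count 50, 5 with limma-voom and 10 without a dispersion trend. The 174 between lines became 424 with ERCC scaling, 265 with no filter and 110 with limma-voom. The DMSO change had 10389 calls with ERCC scaling. The cause was not tested, beyond fewer genes or samples entering the stricter fits. Of the reported calls 25 slower and 10 faster remained with ERCC scaling, and 19 and 34 with DESeq2. Replicate numbers did not pair the libraries (correlations of deviations from -0.021 to 0.019 over 15 pairs of groups), and the replicate block gave 32 slower and 56 faster genes.

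ERCC scaling turned MYCN (0.27), RPS2 (0.27), RPS27A (0.20), RPLP1 (0.33), MT-ND1 (0.33), EIF4A2 (0.16) and EIF4A1 (0.16). It also moved list medians from below to above 0, among them ribosomal protein (0.50), glycolysis (0.54), ATF4 list (0.39) and histone genes (0.06). All genes had 0.70 with that scaling. Without 1 library the 0 to 3 h value of ANKRD28 ranged from -0.43 to 2.84 and that of RPS29 from -0.15 to 3.09, both turned by leaving out STM2457 3 h replicate 1. Leaving out 1 library gave 15 to 43 slower genes, 29 to 89 faster, 5 to 13 over 0 to 3 h, 9 to 56 over 3 to 6 h, 28 to 67 between durations and 182 to 297 between lines. Alternative fits also ended calls that no left-out library ended, among them those of MT-ND1 (4 of 12), CHGA, MYCN and ATF4 (2 of 12 each). The calls of FEN1, MAGEF1 and H2AC20 over 6 h were lost in 0 of 12. With groups of 2 libraries each SD is rough, and low-count genes carry wide errors.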

Other observations

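The called genes outside the lists and the named ones were seen only after the values and are given here to complete the 71. Slower were TUBB4B (0.82), a beta tubulin, PRCC (0.82), TRIB2 (0.76), a pseudokinase, DDX23 (0.60), a spliceosomal helicase, SH3PXD2A (0.58), an invadopodium scaffold, and UBTF (0.49), a transcription factor of ribosomal RNA genes. Faster were AQP1 (-2.87), a water channel that shares 26.5% of its exon bases with other genes, AK6 (-2.41), which shares 33.6%, CARTPT (-1.11), a neuropeptide, STRA6 (-0.89), a retinol transporter, LATS1 (-0.84), a Hippo pathway kinase, MAB21L1 (-0.76), PPDPF (-0.68), FOXK1 (-0.64), a forkhead factor, DDX3X (-0.47), an RNA helicase, CEP44 (-0.47), a centrosome protein, SLC25A3 (-0.40), the mitochondrial phosphate carrier, RGS4 (-0.38), a regulator of G protein signalling, and GNAS (-0.34), the stimulatory G protein subunit. The call of AQP1 was lost without DMSO 0 h replicate 1 (-2.63) or DMSO 6 h replicate 2 (-2.70).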
